A study of Mus musculus with 2 samples.

Results

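The opioid system was examined in ribosome-bound RNA from Drd2-expressing cells of the mouse medial prefrontal cortex. Its members here are 8 genes: the 4 peptide precursors Penk, Pdyn, Pnoc and Pomc and the 4 receptors Oprm1, Oprd1, Oprk1 and Oprl1. They were chosen by name, as the genes whose symbol is the only one that the platform annotation gives for a probe set. Earlier results of these data were known when they were chosen. Each has 1 probe set of its own, so the members are 8 of the 22180 named genes and 8 of the 34472 probe sets. Agreement between probe sets of a member could therefore not be examined, and no source used here says which exons the probe sets cover.

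The mice were adults of the strain D2Cre::RiboTag, in which Cre under control of Drd2, the gene of the dopamine D2 receptor, switches on a haemagglutinin-tagged ribosomal protein. Ribosomes carrying the tag were pulled down from dissected medial prefrontal cortex, and the RNA on them was hybridised to arrays. There were 2 arrays, labelled as technical replicates 1 and 2 and each said to come from 5 pooled mice. The labels do not state outright that the pool was the same, which is assumed here. The arrays form 1 group. No unprecipitated cortex, mock precipitation, Cre-negative mouse or second condition was analysed here, so no value is an enrichment, no p-value is given, and the spread between arrays holds no variation between animals.

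Opioid peptides are cut from large precursor proteins. Penk encodes proenkephalin, the source of the enkephalins, which act on delta and mu receptors. Pdyn encodes prodynorphin, whose dynorphins prefer the kappa receptor, and Pomc encodes pro-opiomelanocortin, the source of beta-endorphin and of the melanocortins. Pnoc encodes the precursor of nociceptin, the ligand of the receptor made by Oprl1. The receptors couple to inhibitory G proteins, which lower cyclic AMP, open potassium channels and close calcium channels. In cortex, enkephalin, dynorphin and nociceptin messengers are known mainly from GABAergic interneurons.

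Signals are given on a log2 scale, which was read from the range of the deposited values and is not stated. Background came from 1394 olfactory and vomeronasal receptor genes (the sensory receptor genes), which serve smell and are not typical of cortex. A gene was called above background where both arrays exceeded the 95th percentile of these genes. That threshold lay at 5.61 on replicate 1 and 5.66 on replicate 2. Of all named genes, 60.3% passed it, or 64.1% without the sensory receptor genes that set it. Of the opioid genes, 7 of 8 passed: 3 of the 4 precursors and all 4 receptors. Given that most named genes pass as well, this count alone does not set the opioid genes apart. Their median signal was 8.33, beside 6.36 over all named genes. Since probe sets differ in how strongly they bind, each gene is set against background and the members are not ranked against each other.

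**Figure D1:**
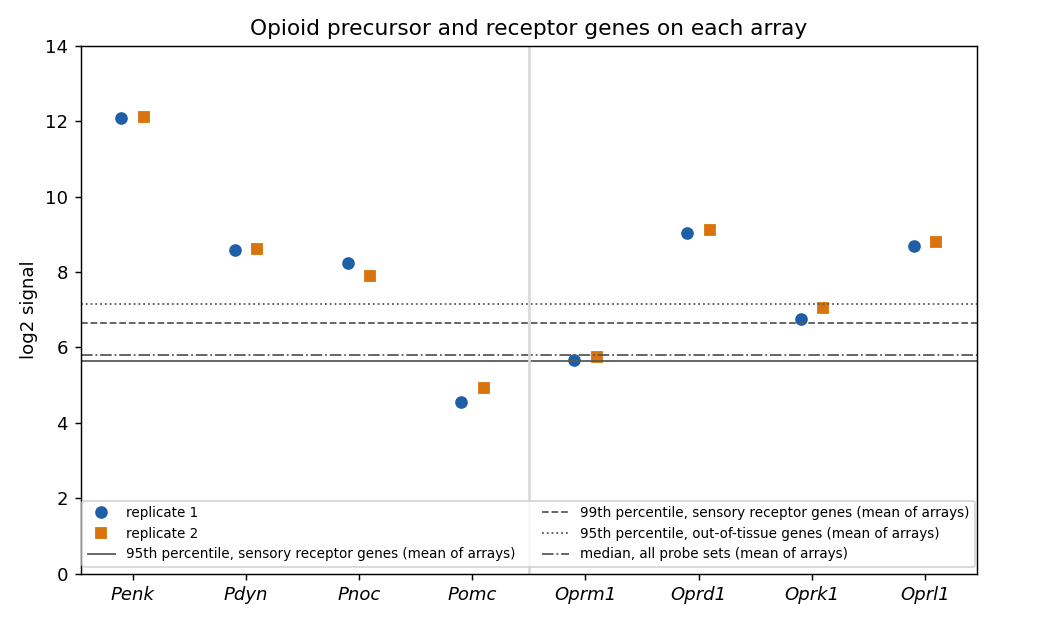
Log2 signal of the 8 opioid genes on replicate 1 (circles) and replicate 2 (squares), precursors on the left and receptors on the right, with each of 4 thresholds drawn as a line at its mean over the arrays. Penk stands 6.47 units over the background threshold on average, Oprm1 lies within 0.09 units of it on either array, and Pomc is under every line.

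Among the precursors, Penk gave 12.09 on replicate 1 and 12.12 on replicate 2 (NCBI gene 18619). Both arrays were high and nearly equal, at a mean of 6.47 log2 units over background, and 0 of the 1394 sensory receptor genes reached this signal. Pdyn (NCBI gene 18610) gave 8.58 and 8.60, a mean of 2.95 units over background. It too was above every sensory receptor gene on each array, the highest of which gave 8.40 on replicate 1 and 8.42 on replicate 2.

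Pnoc (NCBI gene 18155) gave 8.25 on replicate 1 and 7.90 on replicate 2. Both values were well over background, by 2.64 and 2.24 units, and 1 sensory receptor gene (0.0717%) was at or above them on both arrays. Pnoc was the precursor whose arrays differed most for its signal, as described under repeatability.

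Pomc (NCBI gene 18976) gave 4.56 and 4.93 and was the only opioid gene not above background. It lay under the threshold by more than the gap between its arrays, with a margin of -1.05 on replicate 1 and -0.73 on replicate 2. Of the 1394 sensory receptor genes, 181 gave at least as much signal on both arrays. Low signal of a probe set does not show that the messenger is absent. Of the measured markers of the pituitary, where Pomc is known to be strong, 0 of 4 passed, beside 60.3% of all named genes. These markers were Tbx19, Gh, Prl and Cga, with mean signals from 4.55 to 5.11.

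Among the receptors, Oprd1, the delta receptor gene (NCBI gene 18386), gave 9.03 on replicate 1 and 9.12 on replicate 2. Both values were far over background, by a mean of 3.44 units. Oprl1, the nociceptin receptor gene (NCBI gene 18389), gave 8.68 and 8.80, a mean of 3.10 units over background. For both genes, 0 of the sensory receptor genes reached the signal on both arrays.

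Oprk1, the kappa receptor gene (NCBI gene 18387), gave 6.76 on replicate 1 and 7.05 on replicate 2. It was over background by 1.15 and 1.39 units, and 5 sensory receptor genes (0.359%) were at or above it on both arrays. Its call depends on the threshold, since it did not pass the stricter threshold taken from genes of other tissues.

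Oprm1, the mu receptor gene (NCBI gene 18390), gave 5.67 and 5.75. It passed by 0.06 units on replicate 1 and 0.09 on replicate 2. Those margins are smaller than the SD of the difference between arrays for genes of like signal, 0.230, so its call is at the limit of what these arrays resolve. Of the sensory receptor genes, 54 (3.87%) gave at least as much signal on both arrays. Of 32 measured genes typical of testis, liver or skeletal muscle, 9 did so, beside 2 for Oprk1 and 0 for Oprd1 and Oprl1.

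**Figure D2:**
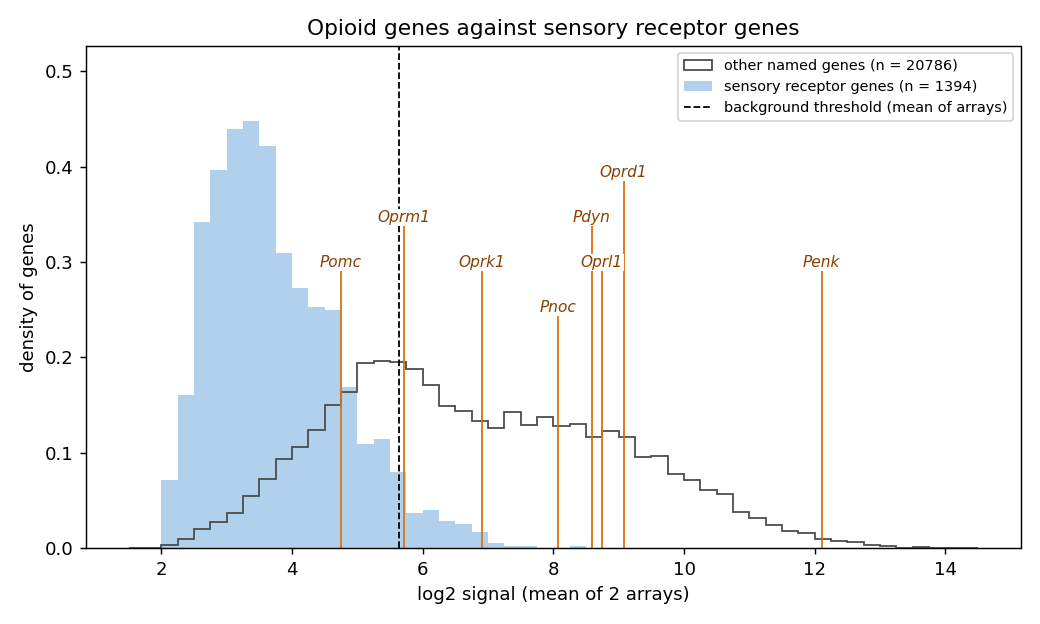
Distribution of log2 signal (mean of 2 arrays) over 1394 sensory receptor genes (filled) and the 20786 other named genes (outline), each scaled to unit area, with the background threshold as a dashed line and each opioid gene as a vertical line whose height has no meaning. Pomc, Oprm1, Oprk1 and Pnoc lie within the range of the sensory receptor genes, while Penk, Pdyn, Oprd1 and Oprl1 lie to the right of it. Oprk1 and Pnoc are in its upper tail, with 5 and 1 of these genes at or above them on both arrays.

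The margins were then read against stricter thresholds. At the 99th percentile of sensory receptor genes, 6.64 on both arrays, 6 of the 8 opioid genes passed, beside 45.0% of named genes. The gene lost was Oprm1, while Oprk1 passed by 0.12 and 0.41 units. At the median of all probe sets, 5.80 and 5.81, Oprm1 was again the gene lost, with 6 of 8 passing beside 57.5% of named genes. The strictest threshold was taken from the genes of testis, liver and muscle, again at their 95th percentile. At 7.26 on replicate 1 and 7.06 on replicate 2, 5 of 8 opioid genes passed, beside 38.2% of named genes. There Oprk1 was lost too, by 0.50 units on replicate 1 and by 0.01 on replicate 2. That threshold rests on 32 genes, and leaving out Odf1, whose probe sets gave 4.98 and 10.02, moved it to 6.85 and 6.62, with the same count of 5. Penk, Pdyn, Pnoc, Oprd1 and Oprl1 passed every threshold named here, and Pomc passed none.

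Each ligand and receptor can be read side by side. The enkephalin precursor Penk and the delta receptor gene Oprd1 were both above all thresholds, and so were the nociceptin precursor Pnoc and its receptor gene Oprl1. The dynorphin precursor Pdyn was above all thresholds, whereas the kappa receptor gene Oprk1 passed 3 of 4. For beta-endorphin, Pomc was not above background. The mu receptor gene Oprm1, on whose product both beta-endorphin and the enkephalins act, passed 1 of 4 thresholds. These are calls on the RNA of 1 pool, and they do not show that ligand and receptor are in the same cell.

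The difference between arrays was set beside that of genes of like signal, those whose mean was within 0.5 log2 units. Replicate 2 was higher for 7 of the 8 opioid genes, beside 45.6% of all named genes. For 5 of the 8 the absolute difference was larger than the median at like signal, and for 5 of the 8 it was smaller than the SD there. Penk and Pdyn differed by 0.03 and 0.02, against medians of 0.06 and 0.09 at like signal, and Oprm1 by 0.08, against 0.15. Oprd1 differed by 0.09 and Oprl1 by 0.12, slightly more than the medians of 0.08 and 0.09 and less than the SDs of 0.117 and 0.124. The smallest differences for their signal were thus those of Penk, Pdyn and Oprm1.

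Pnoc, Oprk1 and Pomc differed by more than the SD at like signal, and the medians there were 0.09, 0.11 and 0.18. From replicate 1 to replicate 2, Pnoc fell by 0.35 log2 units, while the difference had an SD of 0.137 over the 2702 genes of like signal. Of those genes, 1.15% differed by more. Oprk1 was higher on replicate 2 by 0.29, against an SD of 0.172 at like signal, where 8.37% of genes differed by more. Pomc was higher by 0.37, against an SD of 0.280 and with 16.2% of genes differing by more. None of the 3 differences moved its gene across the background threshold.

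**Figure D3:**
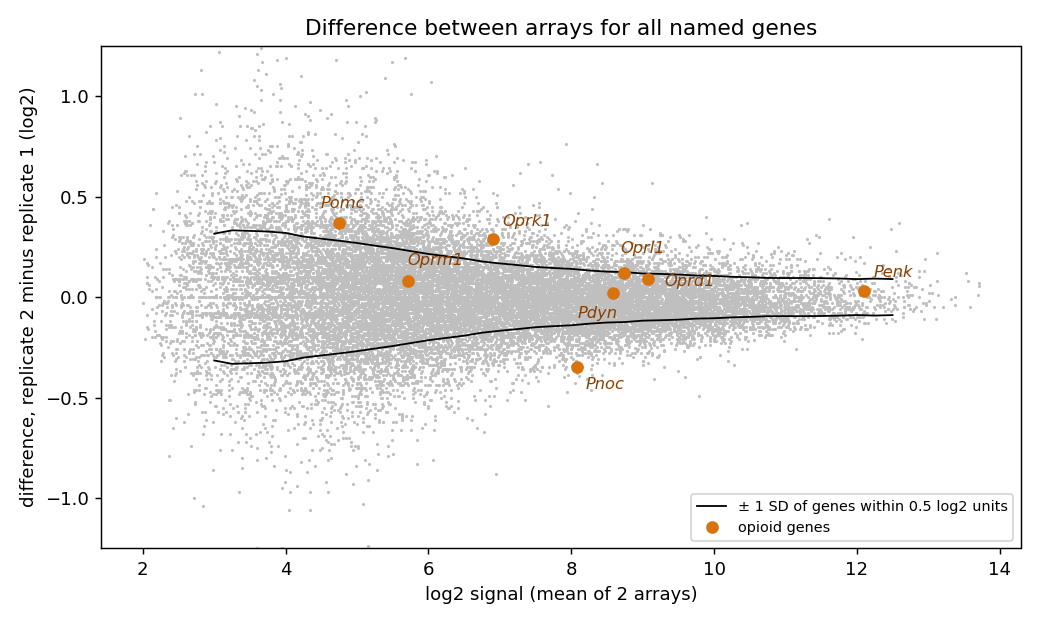
Difference between the arrays (replicate 2 minus replicate 1, log2) against mean log2 signal for the named genes (grey, 8 genes lie beyond the vertical axis), with the opioid genes in orange and black lines at 1 SD of the genes within 0.5 log2 units. Pnoc at -0.35, Oprk1 at 0.29 and Pomc at 0.37 lie outside the lines, and the other 5 opioid genes lie inside them.

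The cell type given in the labels is Drd2+ neurons, while the titles say cells, and Drd2 itself gave 10.78 and 10.70. Markers of both main cortical neuron classes were above background, beside 60.3% of all named genes. They were all 6 measured glutamatergic markers, with mean signals from 6.38 to 12.40, and all 12 GABAergic markers, from 6.55 to 13.71. At the 99th percentile of sensory receptor genes, which 45.0% of named genes passed, 5 glutamatergic and 11 GABAergic markers passed. The counts were the same at the threshold taken from other tissues, which 38.2% passed. The first measured glutamatergic markers were the vesicular glutamate transporter Slc17a7 at 12.28 and 12.32 and the transcription factors Tbr1 at 9.53 and 9.46 and Neurod2 at 10.75 and 10.86. The GABAergic ones were the GABA-synthesising enzymes Gad1 at 8.78 and 8.91 and Gad2 at 11.50 and 11.49, and the vesicular transporter Slc32a1 at 9.05 and 8.91. The Slc32a1 values average 2 probe sets that lay far apart, at means of 7.165 and 10.785 over the arrays. In such bulk RNA, fewer cells of a type and less RNA per cell cannot be told apart.

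Penk and Pdyn are also known as genes of striatal projection neurons, Penk of the indirect and Pdyn of the direct pathway. Beside 60.3% of all named genes, 4 of 4 measured indirect-pathway markers passed, with mean signals from 6.19 to 10.74. The highest was Drd2 itself, which controls Cre in these mice, so its passing was built into the capture. Drd2 is also counted at the stricter thresholds below. The other markers included the orphan receptors Gpr6 at 8.89 and 8.91 and Gpr52 at 8.53 and 8.52. Of the direct-pathway markers, 4 of 5 passed, with the receptor Drd1 at 7.39 and 7.36 and the tachykinin precursor Tac1 at 8.56 and 8.44. Isl1, a transcription factor of these cells, did not pass at 5.34 and 5.49. Markers of both pathways passed in 4 of 4 measured cases, from 7.88 to 10.73, with Rgs9 at 8.85 and 8.77, Pde10a at 9.66 and 9.46 and Rarb at 8.03 and 7.73. At the 99th percentile of sensory receptor genes, which 45.0% of named genes passed, 3 indirect-pathway markers, 4 direct-pathway markers and 4 markers of both pathways passed. The counts were the same at the threshold taken from other tissues, which 38.2% passed. The part of striatal tissue in the Penk and Pdyn signals was not tested.

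Markers of other brain cells were above background as well, beside 60.3% of all named genes: 5 of 5 astrocyte markers (6.67 to 8.63), 4 of 4 measured oligodendrocyte markers (7.15 to 9.39), 4 of 4 microglia markers (5.85 to 7.83) and 4 of 4 endothelial markers (6.04 to 7.16). At the 99th percentile of sensory receptor genes, which 45.0% of named genes passed, 5 astrocyte and 4 oligodendrocyte markers but only 1 microglia and 1 endothelial marker passed. At the threshold taken from other tissues the counts were 3, 3, 1 and 1. Among these genes were Gfap at 6.65 and 6.68, Mbp at 9.13 and 9.19, Cx3cr1 at 7.76 and 7.91 and Cldn5 at 5.95 and 6.12. Of the fibroblast markers, a cell type that can also hold Penk messenger, 2 of 4 passed, Col1a1 at 6.64 and 6.58 and Dcn at 7.15 and 7.17. Lum, at 4.02 and 3.77, and Col1a2, whose probe sets at 4.26 and 6.63 lay on different sides of the threshold, did not. Of the 4 fibroblast markers, 1 passed the 99th percentile and 0 the threshold from other tissues. The part of these cells in the opioid signals was not tested.

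Genes that make, break down and relay opioid peptides were mostly above background. Over 7 lists, 49 of the 56 measured genes passed (87.5%, beside 60.3% of all named genes), with a median of 8.61 against 6.36. The lists were chosen with earlier results of these data known, so this contrast is a description and not a test. Of the 7 listed genes of peptide processing, 6 were measured, and all 6 passed, at a median of 10.83. The convertase Pcsk2 was listed but not analysed. Pcsk1, the convertase that cuts precursors at paired basic residues, gave 9.38 and 9.29. Cpe, the carboxypeptidase that trims the cut ends, gave 12.77 and 12.71, and Scg5, the chaperone of the related convertase Pcsk2, gave 10.87 and 10.76.

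All 8 measured genes of peptide breakdown passed, beside 60.3% of all named genes. Their median was 8.34. Mme (neprilysin), which cleaves enkephalins outside the cell, gave 8.32 and 8.26. The dipeptidyl peptidase Dpp3 gave 8.78 and 8.75. Anpep, aminopeptidase N, gave 6.21 and 6.40, and neither it nor Ece2, at 6.65 and 6.58, passed the threshold taken from other tissues.

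Of the 14 receptor effectors, 13 passed, beside 60.3% of all named genes. Their median was 9.94. The inhibitory G protein subunits Gnai1, Gnai2 and Gnai3 gave 11.23 and 11.20, 10.17 and 9.99, and 8.20 and 8.17. Kcnj5, a subunit of the G-protein-gated potassium channel known mainly from heart, was the exception at 5.64 and 5.41, above background on replicate 1 only. All 9 measured receptor regulators passed, beside the same 60.3%, at a median of 8.81. They included the receptor kinases Grk3 at 9.12 and 9.07 and Grk5 at 7.49 and 7.46, and the arrestin gene Arrb1 at 11.20 and 11.19.

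Calls in the lists of other receptors depended on the threshold. Of 9 other receptors that bind peptides of these precursors or related fragments, 5 passed (55.6%, beside 60.3% of all named genes). Their median was 5.72, against 6.36 over all named genes, so the count does not set these receptors apart. Only Ogfr, the opioid growth factor receptor, passed the threshold taken from other tissues. Ogfr gave 8.80 and 8.54, and Ackr3, an atypical chemokine receptor that takes up opioid peptides, gave 6.55 and 6.78. The bradykinin receptor genes, whose products also bind dynorphin fragments, lay near the threshold, with Bdkrb1 at 5.49 and 5.52 not above it and Bdkrb2 at 5.66 and 5.78 above it. Of the melanocortin receptors, which bind the other products of Pomc, Mc1r (5.20 and 5.20), Mc2r (4.26 and 4.05) and Mc3r (4.67 and 4.87) did not pass, while Mc4r (6.43 and 6.29) and Mc5r (5.84 and 5.94) did.

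In the system known to oppose opioid action, 3 of 4 genes passed, beside 60.3% of all named genes. At the 99th percentile of sensory receptor genes 0 passed, beside 45.0% of named genes. The neuropeptide FF precursor Npff gave 6.31 and 6.34 and its receptor Npffr1 gave 6.29 and 6.42. Npffr2, the other receptor, was not above background at 4.67 and 4.93. Of the 6 transcription regulators known to act on opioid genes, 5 passed, at a median of 9.14. Creb1, the cyclic AMP response element binding protein, gave 9.57 and 9.62, Kcnip3, known as the prodynorphin repressor DREAM, gave 9.74 on both arrays, and Crem gave 5.83 and 5.71. Rest, a repressor of neuronal genes that acts on Oprm1, was not above background at 5.45 and 5.38.

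**Figure D4:**
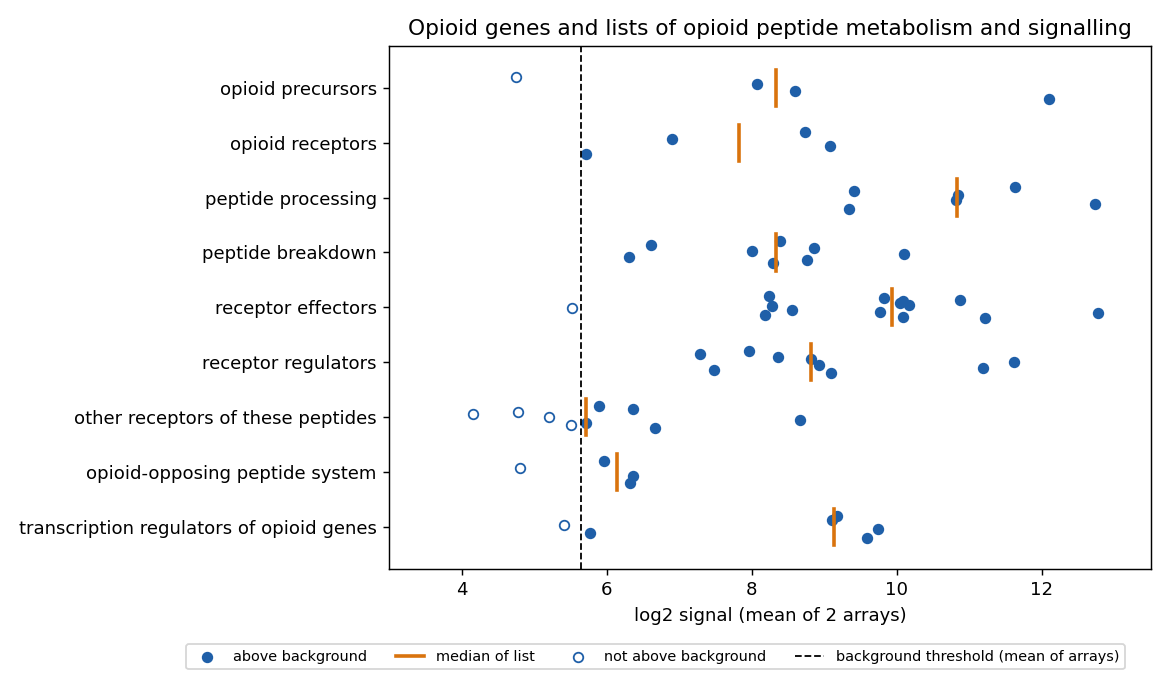
Mean log2 signal over 2 arrays of each measured gene in the opioid precursor and receptor lists and in 7 lists of peptide metabolism and signalling, 1 point a gene, filled where above background on both arrays, with the list's median as an orange bar and the background threshold as a dashed line. The medians run from 5.72 for the other receptors of these peptides to 10.83 for peptide processing, and open points appear in 5 of the 9 rows.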

How the data were processed

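RNA from tagged ribosomes was labelled for whole-transcript arrays, per the labels' protocols. The authors processed the arrays to 1 value per probe set before they deposited them, and these are taken from their range to be log2 signals. How the arrays were corrected, summarised and normalized is not given in the sources used here. No scanner file, detection p-value or genome build was used. Of 34472 probe sets, 23521 named 1 gene in the platform annotation, 1814 named several and 9137 are unnamed here. Averaging a gene's probe sets left 22180 genes. The threshold was the 95th percentile of 1394 sensory receptor genes on each array. The rule named all 8 opioid genes, the first 3 measured genes of each list, and up to 5 genes a list whose call differed from that of most of the list; Cga, Ece2, Ogfr, Mc4r and Mc5r were named after their values were seen. Only 1 gene of each glial or endothelial list is given. Members and lists were chosen with earlier results of these data known. List genes that no probe set named alone were not analysed here. The calling rule was run on simulated data, and the accuracy of the calls given here was not tested. Python 3.11.15, numpy 2.4.6, pandas 2.3.3 and matplotlib 3.10.9 were used. The number of arrays limits the precision, and technical replicates measure technical spread only.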

Additional observations from a re-analysis of the deposited data

How the results depend on the processing

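The count of opioid genes above background was 7 of 8 and ranged from 5 to 7 over 10 alternatives, 1 of them (the threshold from other tissues without Odf1) added after the data were seen. It stayed at 7 with the highest or the lowest probe set of a gene, with only genes of 1 probe set, with quantile normalization and with either array alone. Most of these settings could hardly change it. Each opioid gene has 1 probe set, so the choice of probe sets acts only through the threshold. A call needs both arrays, so leaving 1 out cannot lower the count. The count fell to 6 at the 99th percentile of sensory receptor genes and at the median of all probe sets, and to 5 at both thresholds taken from other tissues. The calls that changed were those of Oprm1 and Oprk1. The lower of the margins of Oprm1 on the 2 arrays was -0.97 at the 99th percentile, -0.13 at the median and -1.59 and -1.18 at the thresholds from other tissues with and without Odf1. That of Oprk1 was -0.50 and -0.09 at the last pair of thresholds. The count over the pathway lists was 49 and ranged from 39 to 50. No paired analysis was possible because the samples form 1 group. With 2 technical arrays of a pool, no statement about variation between mice can be made, and signals near the sensory receptor genes, as for Oprm1 and Pomc, could not be told from background.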
